A study of Mus musculus with 60 samples.

Results

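A set of 47 genes of mitosis was followed in mouse embryonic stem (ES) cells given etoposide, with the long non-coding RNA Lnc956 knocked down or knocked out, the tumour suppressor P53 knocked down, or both. The members were chosen by name from the textbook machinery of mitosis and taken as the rows with those symbols. All 47 stood in both expression tables, among 24206 symbols in the first and 24314 in the second, and all 47 passed the filter of 1 FPKM (fragments scaled to transcript length and to the size of the library) in at least 2 libraries, among 12733 and 14223 genes that did. They hold 3 mitotic kinases, 7 cyclins and regulators of CDK1, 5 genes of the anaphase-promoting complex and separase, 5 of the spindle checkpoint, 3 centromere proteins, 4 of the chromosomal passenger complex, 9 kinesins, 6 spindle assembly proteins and 5 genes of cytokinesis and chromosome binding.

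Each of the 30 groups was measured in 2 libraries, 60 in all, of which 36 were RNA-seq and 24 ChIP-seq. The first RNA-seq set held Lnc956 knockdown cells and WT cells, each given 10 uM etoposide (duration not given in the sources used here) or left untreated. The time course held cells with both losses (Lnc956 knockout and P53 knockdown, called the combined loss), Lnc956 knockout cells and P53 knockdown cells at 0, 3, 6 and 9 h of etoposide, and WT cells at 6 and 9 h. Most time-course labels give 1 uM etoposide, and 4 libraries give 10 uM, namely knockout 3 h replicate 2, knockout 6 h replicate 1, P53 knockdown 6 h replicate 1 and combined loss 9 h replicate 2. ChIP-seq was made for P53 with an antibody against its phosphorylated serine 15, in Lnc956 knockdown and WT cells, and for KLF4 in Lnc956 knockout cells, knockout cells given back full-length Lnc956 or Lnc956 with an inner stretch deleted, and WT cells, each given 10 uM etoposide, labelled as 3 h for KLF4, or left untreated. All cells grew with serum replacement and the cytokine LIF. Neither the number of clones behind a line nor whether the libraries of a group came from separate cultures is stated in the sources used here, so the p-values measure the spread between libraries, which may be technical.

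Etoposide traps topoisomerase II on cut DNA and so leaves double-strand breaks, to which cells answer by stopping before division. Genes of mitosis are normally transcribed in the G2 phase and at entry into mitosis. The MuvB complex brings MYBL2 and FOXM1 to their promoters when they are on, and as part of the repressive DREAM complex shuts them when P53 induces the CDK inhibitor p21. MuvB contacts a short promoter element, the cell cycle genes homology region (CHR, TTTGAA or TTCGAA), which often stands beside CCAAT boxes bound by the factor NF-Y. In bulk RNA, fewer cells in a phase of the cycle and less RNA of these genes per cell cannot be told apart.

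The promoter stretches of 5 members that moved in different ways are shown because these elements can be read in them. Each is the 150 bases before a start of the gene in the RefSeq promoter table, 5′ to 3′ on the gene's strand, on GRCm38.p6, and the capitals mark CHR or CCAAT letters on either strand, so that a match on the other strand reads TTCAAA or ATTGG. The stretches lie at chr4:118437344-118437493 on the minus strand for Cdc20, chr2:164769779-164769928 on the plus strand for Ube2c, chr3:27153879-27154028 on the minus strand for Ect2, chr8:22185820-22185969 on the minus strand for Ckap2 and chr6:66535071-66535220 on the plus strand for Mad2l1.
Cdc20: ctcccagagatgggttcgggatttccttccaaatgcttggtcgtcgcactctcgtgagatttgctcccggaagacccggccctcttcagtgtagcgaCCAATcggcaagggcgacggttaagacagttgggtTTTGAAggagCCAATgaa
Ube2c: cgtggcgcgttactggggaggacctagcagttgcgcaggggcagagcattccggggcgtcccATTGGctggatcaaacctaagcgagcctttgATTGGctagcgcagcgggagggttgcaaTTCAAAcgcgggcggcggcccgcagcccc
Ect2: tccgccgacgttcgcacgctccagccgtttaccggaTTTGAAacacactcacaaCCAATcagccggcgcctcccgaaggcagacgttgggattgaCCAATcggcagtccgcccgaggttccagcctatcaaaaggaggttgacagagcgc
Ckap2: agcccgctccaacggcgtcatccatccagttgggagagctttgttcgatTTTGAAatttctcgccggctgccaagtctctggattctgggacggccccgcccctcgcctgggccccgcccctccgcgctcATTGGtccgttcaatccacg
Mad2l1: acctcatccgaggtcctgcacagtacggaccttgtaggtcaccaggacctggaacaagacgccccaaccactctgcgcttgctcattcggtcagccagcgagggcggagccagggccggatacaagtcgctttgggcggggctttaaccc
The stretches of Cdc20, Ube2c, Ect2 and Ckap2 hold a CHR match and at least 1 CCAAT match, and that of Mad2l1 holds neither. Over the whole windows in the RefSeq table, which run from 250 bases before to 50 after the start, 39 members had a window. CHR letters stood on either strand in 29 of them (74.4%), against 15.9% of 10396 tested genes with a window. CCAAT stood in 31 (79.5%), against 43.2%, and both stood in 26 (66.7%), against 6.87%. The nearest such start lay over 100 bases from the annotated end of the gene for 7 of the 39, with that of Ect2 375 bases inside the gene. A match is a run of letters and not a measured site.

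Some features of the libraries moved with the groups and are given first. Trp53, the gene of P53, had 61.8 to 112 FPKM in P53 knockdown libraries and 52.5 to 66.2 FPKM in combined-loss libraries, against 183 to 234 FPKM in WT libraries of the time course. Lnc956 was not matched to a row and its level is not analysed here. ES cell markers had group medians between 89.7 and 210 FPKM over the time course and between 134 and 231 FPKM in the first set. The median of 10 fibroblast and feeder markers was 6.84 FPKM in treated Lnc956 knockdown cells and 6.91 FPKM in treated WT cells, against 50.6 FPKM in untreated knockdown cells and 46.9 FPKM in untreated WT cells, and in the time course it ran between 12.01 and 48.4 FPKM in the 3 modified lines, against 0.03 FPKM at both times in WT cells, with 2 of the 10 markers at 0. Of 4 Y-linked genes, all 4 were at 0 in the WT libraries of the time course. In P53 knockdown cells their median was 9.27 FPKM at 0 h and 8.89 FPKM at 3 h. It was 1.26 FPKM at 6 h and 1.19 FPKM at 9 h. All 4 were lower at 6 h and 9 h than at 0 h, and 0 passed at 3 h. In knockout cells the median was 0.0548, 0.0391, 0.546 and 0.499 FPKM at 0, 3, 6 and 9 h. In the first set it was 6.06 FPKM in treated knockdown and 4.16 FPKM in treated WT cells, against 0.679 FPKM in untreated knockdown and 0.743 FPKM in untreated WT cells, with all 4 higher under etoposide in both lines. Of 6 trophectoderm markers, which mark the outer cells of the blastocyst, all 3 tested in the first set were lower in treated than in untreated cells of both lines. Of the 4 tested in the time course, 4 at 6 h and 3 at 9 h were higher in knockout than in WT cells, and all 4 at both hours in P53 knockdown than in WT cells. The untreated P53 knockdown libraries differed from each other more than most, with a median difference of 0.33 (log2) over the mitosis genes, and the combined-loss libraries at 6 h differed widely in single members such as Bub1, with 25.3 and 11.1 FPKM. The part of these features in the results was not tested.

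In WT cells of the first set, etoposide moved the mitosis genes in both directions. Ube2c, Cdc20 and Mad2l1, which run or restrain the anaphase-promoting complex, were higher, while Plk1, most kinesins and the cytokinesis genes Ect2, Anln and Racgap1 were lower. In all 43 of 47 members passed limma's test at an adjusted p below 0.05, 13 higher and 30 lower, against 76.9% of all tested genes in either direction, 39.3% higher and 37.6% lower. The members' median change was -0.45 (log2 of FPKM + 1, a scale that understates the change of low genes) and that of all genes 0.01. Cenpa, Cenpe, Nek2 and Ccnb2 did not pass.

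Ect2, the exchange factor that switches on RhoA at the division plane, had 14.01 and 13.7 FPKM in treated WT cells, against 35.5 and 34.0 FPKM in untreated WT cells, a change of -1.26 ± 0.07 (log2 ± SE, limma adjusted p = 3.42e-07). Prc1, which bundles the microtubules of the central spindle, had 24.9 and 26.2 FPKM in treated cells, against 59.1 and 55.6 FPKM in untreated cells. Plk1, the Polo-like kinase that drives entry into mitosis, had 32.3 and 28.4 FPKM in treated cells, against 62.0 and 57.9 FPKM in untreated cells, a change of -0.96 ± 0.07. The treated and untreated libraries did not overlap for any of these 3 genes, which were picked by the size of their change. The share of all genes without overlap was not counted, here or below. The other strong decreases were those of the kinesins Kif20b (-1.18), Kif18a (-1.11), which dampens chromosome movements, and Kif4 (-0.91), which acts on chromosome arms and the central spindle. Of the kinesins 8 of 9 fell, as did 5 of 6 spindle assembly genes. Kif11, the motor that pushes the spindle poles apart, fell by 0.79, and Tpx2, an activator of the kinase Aurora A, by 0.54.

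Ube2c, the ubiquitin-conjugating enzyme of the anaphase-promoting complex, had 379 and 349 FPKM in treated WT cells, against 202 and 193 FPKM in untreated WT cells, a change of 0.88 ± 0.07 (limma adjusted p = 5.98e-06). Cdca3, an adaptor for protein turnover at entry into mitosis, rose by 0.86. Ckap2, a stabiliser of spindle microtubules, rose by 0.74, with 99.8 and 102 FPKM in treated cells against 59.2 and 61.0 FPKM in untreated cells. Again treated and untreated libraries did not overlap. Mad2l1, which holds back anaphase until chromosomes are attached, rose by 0.66, Cdc20, the activator it inhibits, by 0.60, and Cdc25b, a phosphatase that activates CDK1, by 0.55. Within the checkpoint the kinases Bub1 and Ttk fell, by 0.81 and 0.59, while Bub3 and Mad2l1 rose. Within the passenger complex the kinase Aurkb (0.41) and the survivin gene Birc5 (0.34) rose, while Incenp and Cdca8 fell. The cyclin gene Ccnb1 was higher by 0.10 ± 0.04 (limma adjusted p = 0.0466), with 152 and 155 FPKM in treated cells against 141 and 145 FPKM in untreated cells.

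In Lnc956 knockdown cells the same treatment raised more of the mitosis genes than it lowered. Of 47 members 24 were higher and 10 lower, against 31.5% and 37.1% of all genes and 68.6% in either direction, with a median of 0.15 for the members and -0.04 for all genes. Cdca3 (1.07), Cdc25b (0.84), Fzr1 (0.81), which is the activator of the anaphase-promoting complex at mitotic exit, Ube2c (0.78), Cdc20 (0.76) and the centrosome kinase Nek2 (0.61) rose most. All 3 kinases rose, as did 5 of 7 genes of cyclins and CDK1 control. Bub1 (-0.45), Ect2 (-0.45), Hmmr (-0.39), a protein of spindle poles, Kif18a (-0.39), Cdca2 (-0.27), which brings a phosphatase to chromosomes, and Ttk (-0.27) fell most.

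**Figure D1:**
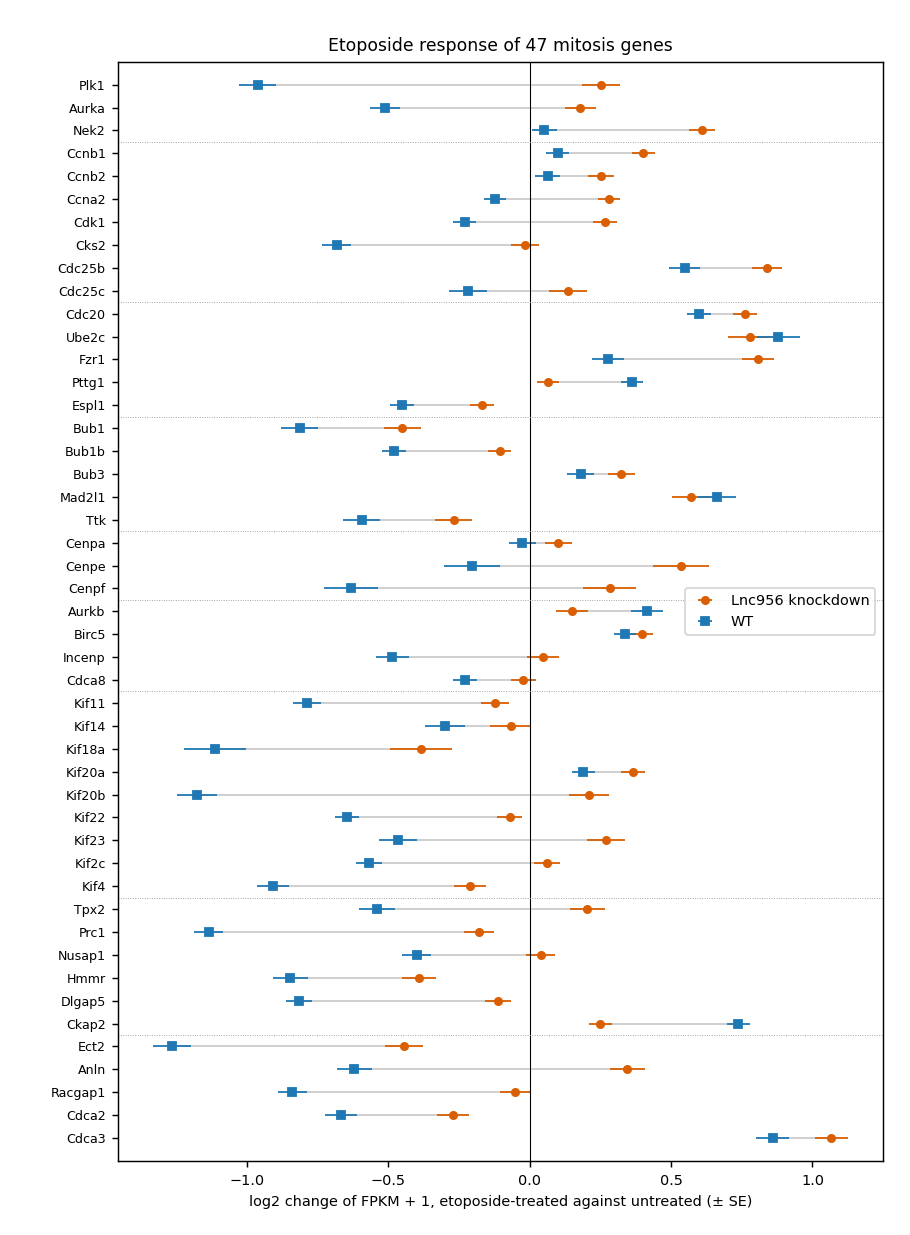
Change of each of the 47 mitosis genes with etoposide in Lnc956 knockdown cells (circles) and WT cells (squares), as log2 change of FPKM + 1 against untreated cells of the same line on the x axis, with the standard error of the limma fit as bars and dotted lines between roles. The knockdown value lies right of the WT value for most genes, with Ckap2, Pttg1 and Aurkb among those where it lies left.

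The difference between the responses was tested as an interaction. It passed for 39 members, 36 with a higher response in knockdown cells than in WT cells and 3 with a lower one, against 33.1% of all genes, of which 13.6% of genes had a higher and 19.5% a lower response. Of the genes called, 41.1% were higher, a share that came to 51.4% after quantile scaling, and the members' split stayed at 36 and 3. Kif20b, a kinesin of the last step of cytokinesis, had the largest difference, 1.39 ± 0.10 (limma adjusted p = 5.37e-05). Its libraries read 7.69 and 8.08 FPKM in treated and 6.26 and 7.13 FPKM in untreated knockdown cells, and 5.41 and 5.50 FPKM in treated and 13.8 and 13.4 FPKM in untreated WT cells. Part of that difference lay in the untreated cells, where knockdown libraries were the lower ones. Plk1 followed with 1.22, Anln, the scaffold of the contractile ring, with 0.97, Prc1 with 0.96, Cenpf, a large kinetochore protein, with 0.91 and Ect2 with 0.82. All 7 genes of cyclins and CDK1 control and 8 of 9 kinesins had the higher response. Ckap2 (-0.49), the securin gene Pttg1 (-0.30) and Aurkb (-0.27) had the lower one.

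Set side by side under etoposide, knockdown cells had more RNA of most mitosis genes than WT cells. Of 47 members 37 were higher and 2, Ckap2 and Aurkb, lower, against 45.6% of all genes in either direction, 22.7% higher and 22.9% lower, and the median was 0.37 against -0.01 for all genes. Plk1 had 69.3 and 72.0 FPKM in treated knockdown cells, against 32.3 and 28.4 FPKM in treated WT cells, a change of 1.20 ± 0.07 (limma adjusted p = 3.23e-06). Ect2 had 28.6 and 32.3 FPKM, against 14.01 and 13.7 FPKM, and Racgap1, the partner that recruits Ect2 to the midzone, had 55.1 and 56.1 FPKM, against 33.0 and 30.2 FPKM. In these 3 genes the treated libraries of the lines did not overlap. Ect2 (1.08), Anln (0.85), Prc1 (0.85), Racgap1 (0.80) and Fzr1 (0.78) rose most after Plk1. All 9 kinesins, all 3 kinases and all 5 genes of cytokinesis and chromosome binding were higher. Aurka (0.72), Tpx2 (0.71), Cdk1 (0.59), Kif11 (0.54) and Cdc20 (0.24) passed as well, while Ube2c (0.06), Bub1 (0.02), Cenpf (0.13) and Pttg1 (-0.01) did not.

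Without etoposide the lines differed less. In untreated knockdown cells 4 members were higher and 10 lower than in untreated WT cells, 14 in all, against 23.8% of all genes in either direction, 15.3% higher and 8.48% lower. That number came to 4 without knockdown replicate 1 or without WT replicate 1, and to 7 without WT replicate 2. Kif20b fell by 0.93 on the log2 scale, Cenpf by 0.78, the kinetochore motor Cenpe by 0.61, Kif23 by 0.36, Bub1 by 0.35 and Hmmr by 0.25. Pttg1 (0.29), Ect2 (0.26), Fzr1 (0.25) and Bub3 (0.15) were higher. Cenpf had 4.62 and 5.68 FPKM in untreated knockdown cells, against 9.68 and 9.40 FPKM in untreated WT cells, so that the lines did not overlap before treatment.

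In the first set the response ran with the length of the gene on the chromosome. Spans of the 47 members ran from 2974 bases (Ube2c) to 101207 bases (Kif4), and across the 47 genes Spearman's rho of span and etoposide response was -0.573 in knockdown cells and -0.69 in WT cells, against -0.245 and -0.278 across 12102 genes. These values describe genes, which share libraries and are not independent replicates. The 24 members with spans up to 18572 bases had a median change of 0.27 in knockdown cells and 0.14 in WT cells, and the 23 longer members had -0.11 and -0.63. The difference of responses between the lines ran with span too, with a rho of 0.604 over the members and 0.17 over all genes. For untreated knockdown against untreated WT cells rho was -0.468 over the members and -0.0548 over all genes. Exceptions in WT cells were Plk1 (10450 bases) and Cks2 (5431 bases), short genes that fell by 0.96 and 0.68. In the time course the sign of rho was not the same in every line. For 9 h against 0 h it was -0.483 over the members in combined-loss, 0.411 in knockout and -0.493 in P53 knockdown cells. Over 13493 genes it was -0.392, 0.00856 and -0.38.

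**Figure D2:**
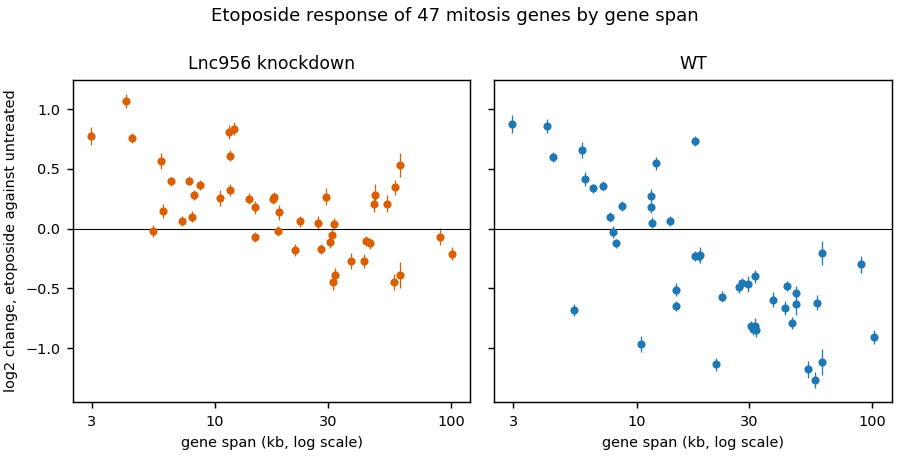
Gene span in kilobases (x axis, log scale) against the etoposide response as log2 change of FPKM + 1 (y axis, bars are standard errors of the limma fit), 1 point per mitosis gene, for Lnc956 knockdown cells in the left panel and WT cells in the right panel. Long genes lie lower in both panels, with a rho of -0.573 on the left and -0.69 on the right.

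The members were also counted by their promoter letters. In WT cells the 29 members with CHR letters in their window had 6 higher and 21 lower and a median of -0.51, and the 10 without them had 5 higher and 3 lower and a median of 0.08. In knockdown cells the 29 had 14 higher and 8 lower and a median of 0.10, and the 10 had 6 higher and 1 lower and a median of 0.40. Over all genes 39.3% rose and 37.6% fell in WT cells, and 31.5% and 37.1% in knockdown cells. The groups are small and their difference was not tested. Ube2c, Cdc20 and Ckap2, which rose in WT cells, and Ect2, which fell, all carry CHR letters in the stretches printed above.

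Other genes of division were counted from lists of names. In treated against untreated WT cells 14 of 18 tested cohesin and condensin genes fell and 3 rose, with a median of -0.62. Among them Smc3 fell by 1.16 and Rad21, the cleavable ring subunit, by 1.04. Of 12 genes of the DREAM and MYBL2-FOXM1 regulators 3 rose and 7 fell, and Foxm1 (1.06) and Mybl2 (-0.60), the activators of this programme, moved apart. Of 16 G2 checkpoint genes 11 rose and 2 fell. Over all genes 39.3% rose and 37.6% fell, and the counts of 28 kinetochore genes (9 and 7) and 13 subunits of the anaphase-promoting complex (4 and 5) lie near or under those shares. Fbxo5, which inhibits that complex, fell by 0.92. In treated knockdown against treated WT cells 12 of 18 cohesin and condensin genes were higher and 0 lower, and 2 of 16 G2 checkpoint genes were higher and 8 lower, where 22.7% of all genes were higher and 22.9% lower.

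In the time course, Lnc956 knockout cells ended with less RNA of the mitosis genes than WT cells. At 9 h of etoposide 40 of 47 members were lower in knockout cells than in WT cells and 0 were higher, against 44.1% of all genes in either direction, 23.4% higher and 20.6% lower, and the median was -0.73 against 0 for all genes. Cdk1, Cdc25b, Cks2, Fzr1, Kif14, Kif23 and Cdca3 did not pass. The direction is the opposite of that in the first set, where knockdown cells under etoposide were higher in 37 members. The sets differ in the way Lnc956 was lowered, in the dose and in the tables they come from, and the duration in the first set is not given. In the time course the knockout cells carried fibroblast and feeder markers (median 16.2 FPKM, 9 of 10 markers higher) that stood at 0.03 FPKM in the WT cells. All 4 Y-linked genes were higher in the knockout cells too, and stood at 0 in the WT cells. In treated WT cells of the first set these medians were 6.91 FPKM (fibroblast and feeder) and 4.16 FPKM (Y-linked). The part of these in the result was not tested.

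Ube2c had 94.6 and 114 FPKM in knockout cells at 9 h, against 299 and 284 FPKM in WT cells, a change of -1.48 ± 0.14 (limma adjusted p = 7.11e-08). Cenpf had 4.80 and 3.10 FPKM, against 10.5 and 16.6 FPKM, a change of -1.54 ± 0.35 (adjusted p = 0.00138). Tpx2 had 18.9 and 20.6 FPKM, against 44.0 and 40.5 FPKM. Knockout and WT libraries did not overlap for any of the 3. Kif20b (-1.23), Kif11 (-1.14), Prc1 (-1.11) and Ect2 (-1.09) fell most beside them. Aurka fell by 1.05, Plk1 by 0.90, Ccnb1 by 0.74, Cdc20 by 0.62, Cenpa by 0.59 and Kif20a by 0.40. All 5 checkpoint genes, all 4 of the passenger complex, all 3 centromere genes and all 6 of spindle assembly were lower. Outside the members 12 of 28 kinetochore genes, 7 of 18 cohesin and condensin genes, 10 of 25 replication genes and 6 of 12 DREAM and MYBL2-FOXM1 genes were lower, among them Mybl2 (-0.86), Foxm1 (-0.69) and Lin9 (-1.02), a core subunit of MuvB. Cdkn1a, which codes for p21, was higher, by 0.63. Of 16 G2 checkpoint genes 1 was higher and 8 were lower, against 23.4% and 20.6% of all genes.

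At 6 h the difference was smaller. In knockout cells 17 members were lower and 2 higher than in WT cells, 19 in all, against 48.3% of all genes in either direction, 21.8% higher and 26.4% lower, with a median of -0.23. Without knockout replicate 2 at 6 h 12 passed. Ckap2 (-1.31), Pttg1 (-1.26), Hmmr (-1.01), Cdca2 (-0.93), Aurkb (-0.76) and Aurka (-0.76) fell most, and Nusap1 (0.59) and Ccna2 (0.23) were higher. Ckap2 had 37.8 and 34.7 FPKM in knockout cells at 6 h, against 87.8 and 94.7 FPKM in WT cells. Plk1, with 27.1 and 28.8 FPKM in knockout cells against 25.1 and 22.9 FPKM in WT cells, did not pass (0.21).

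The step between 6 and 9 h was tested as an interaction, and 18 members passed, 2 higher and 16 lower in knockout than in WT cells, against 20.1% of all genes, 12.9% higher and 7.22% lower. Among all genes called, 64.0% had the higher step, and 52.2% after quantile scaling. The members' number came to 11 without knockout replicate 2 at 9 h, and to 11 without the libraries labelled 10 uM, and to 30 in a fit of the compared groups alone. Nusap1 (-1.63), which stabilises microtubules near chromosomes, Ect2 (-1.27), Tpx2 (-1.19 ± 0.18, limma adjusted p = 0.00013), Plk1 (-1.11) and Ube2c (-1.06) had the lower steps, and Pttg1 (0.68) and Aurkb (0.47) the higher ones. Within WT cells 4 members rose between 6 and 9 h and 0 fell, namely Tpx2 (0.48), Kif2c (0.44), Dlgap5 (0.41) and Ccna2 (0.37), against 12.1% of all genes, 7.61% higher and 4.48% lower. Of all genes called there 62.9% were higher, and 46.3% after quantile scaling. The members' number came to 0 without WT replicate 1 at 6 h or at 9 h and to 2 without replicate 2 at either time, and it was 18 in a fit of both groups alone and 8 after quantile scaling. Within knockout cells 16 members fell over the same hours and 2, Pttg1 and Ckap2, rose, against 29.2% of all genes, 21.9% higher and 7.26% lower, a share of higher calls of 75.1% that came to 50.6% after quantile scaling. Without the 4 libraries labelled 10 uM 10 members passed.

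P53 knockdown cells differed from WT cells in both directions, but in a smaller share of the mitosis genes than of all genes. At 9 h 4 members were higher and 13 lower, 17 in all, against 54.5% of all genes in either direction, 29.7% higher and 24.8% lower, with a median of -0.23 against 0.04. Of all genes that passed, 54.5% were higher, and 43.6% after quantile scaling. The members' number came to 11 without either P53 knockdown replicate at 9 h, to 10 without WT replicate 1 and to 27 in a fit of both groups alone. Nek2 (-0.97), Cdc20 (-0.87), Incenp (-0.65) and Ube2c (-0.58) were lower, and Nusap1 (0.70), the cytokinesis motor Kif23 (0.52), Racgap1 (0.46) and Cdca3 (0.38) higher. Cdc20 had 113 FPKM in both P53 knockdown libraries at 9 h, against 218 and 197 FPKM in WT cells, without overlap. At 6 h 7 members were higher and 11 lower, 18 in all, against 53.2% of all genes, 28.9% higher and 24.3% lower, with Cdc20 at -0.90 and Anln at 0.93. That number came to 9 and 8 without P53 knockdown replicates 1 and 2, to 10 without either WT replicate and to 9 without the 4 libraries labelled 10 uM. The step from 6 to 9 h differed from that of WT cells for 1 member, Ccna2 (-0.53), against 8.41% of all genes, and for 9 in a fit of the compared groups alone. All 10 fibroblast and feeder markers, all 4 tested trophectoderm markers and all 4 Y-linked genes were higher in P53 knockdown than in WT cells at both hours. Their part was not tested.

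**Figure D3:**
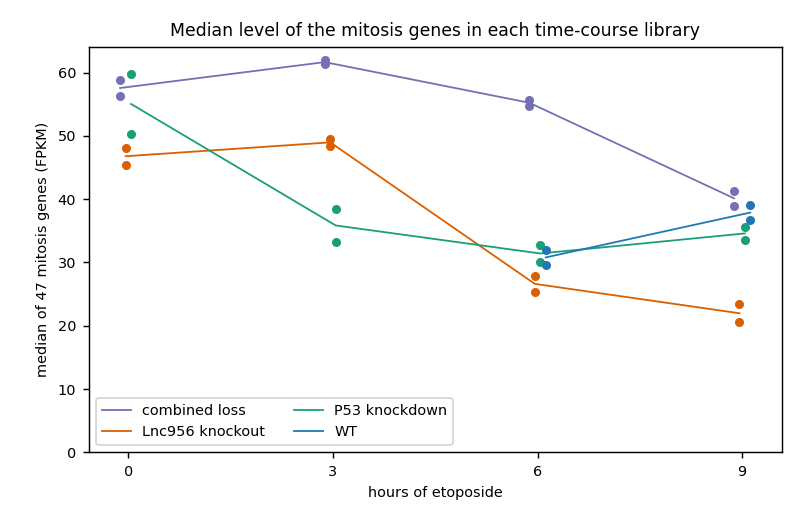
Median FPKM of the 47 mitosis genes (y axis) in each library of the time course against hours of etoposide (x axis), with a line through the mean of both libraries for the combined loss, Lnc956 knockout, P53 knockdown and WT cells. The combined-loss libraries lie between 54.7 and 62.0 FPKM up to 6 h, and knockout libraries at 9 h lie lowest, at 20.5 and 23.4 FPKM.

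Within lines the median level of the mitosis genes fell between different hours. Quantile scaling shifted the median of all genes by between -0.29 (knockout at 9 h against 0 h) and 0.25 (difference of the responses of combined-loss and knockout cells) on the log2 scale. The median over the members was 58.9 and 56.2 FPKM in combined-loss libraries at 0 h, 61.3 and 62.0 FPKM at 3 h, 55.7 and 54.7 FPKM at 6 h and 39.0 and 41.3 FPKM at 9 h. In P53 knockdown libraries it was 50.3 and 59.8 FPKM at 0 h, 33.2 and 38.5 FPKM at 3 h, 32.7 and 30.1 FPKM at 6 h and 35.6 and 33.6 FPKM at 9 h. In knockout libraries it was 45.5 and 48.1 FPKM at 0 h, 49.6 and 48.4 FPKM at 3 h, 25.3 and 27.9 FPKM at 6 h and 20.5 and 23.4 FPKM at 9 h. The median was thus lower than at 0 h from 3 h in P53 knockdown cells, from 6 h in knockout cells and most clearly at 9 h in combined-loss cells. A difference in timing between the lines was not tested. In knockout cells the drop lies between 3 and 6 h, where the naming of the columns changes. WT cells, for which the columns at 0 and 3 h match none of the labelled samples and were left unused, had 29.6 and 32.0 FPKM at 6 h and 39.1 and 36.7 FPKM at 9 h.

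In P53 knockdown cells 11 members were lower at 3 h than at 0 h and 0 higher, against 5.18% of all genes, 2.85% higher and 2.33% lower. The number rests on libraries that differ, and came to 5 without replicate 1 at 3 h and to 4 without replicate 2 at 0 h. In a fit of both groups alone 0 passed, and after quantile scaling 17. Ect2 (-1.12), Kif18a (-1.10) and Plk1 (-0.91) were among them. At 6 h 39 members were lower and 2, Espl1 (0.60) and Aurkb (0.44), higher than at 0 h, against 47.2% of all genes, 29.2% higher and 18% lower. The 41 dropped without replicate 2 at 0 h, and also without all 4 libraries labelled 10 uM. Ect2 had 17.2 and 17.8 FPKM at 6 h, against 55.1 and 69.2 FPKM at 0 h, a change of -1.76. At 9 h 31 were lower and 3 higher, against 60.2% of all genes, 39.3% higher and 20.9% lower, with Ect2 at -2.10. All 4 Y-linked genes were lower at 6 h and at 9 h than at 0 h, and 6 of 10 fibroblast and feeder markers were higher. At 3 h against 0 h 0 of either list passed. Their part was not tested. Of the genes called at 6 h 61.9% were higher, and 50.7% after quantile scaling, and at 9 h 65.3%, and 49.6% after that scaling, which also lowered the median of all genes by 0.13 at 6 h and by 0.21 at 9 h.

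In knockout cells 0 members passed limma's test at 3 h against 0 h, 3 had an unadjusted p below 0.05, and 0.45% of all genes passed. At 6 h 24 members were lower and 12 higher than at 0 h, against 50.8% of all genes, 29.7% higher and 21.1% lower. Higher calls made up 58.5% of all, and 46.8% after quantile scaling. Aurka (-2.17) and Plk1 (-2.10) fell most, with 27.1 and 28.8 FPKM of Plk1 at 6 h against 125 and 120 FPKM at 0 h. Of the 12 that rose, Cenpe stood at 2.22, Cenpf at 2.15, Ckap2 at 2.01, Kif20b at 1.91, Bub1 at 1.86 and Kif11 at 1.60. Cenpf had 8.51 and 8.79 FPKM at 6 h, against 1.41 and 0.946 FPKM at 0 h. These genes stood low in the knockout libraries at 0 h and 3 h beside the other lines: Cenpf at 0 h had 8.17 and 12.7 FPKM in combined-loss and 20.7 and 27.1 FPKM in P53 knockdown cells. The median of 18 cohesin and condensin genes moved with them, with 5.30 FPKM at 0 h, 7.63 FPKM at 3 h, 25.0 FPKM at 6 h and 15.5 FPKM at 9 h. Columns of the knockout libraries at 0 and 3 h are named by another scheme than those at 6 and 9 h. The part of this in the rises and in the falls against 0 h, here and in other comparisons of these libraries, was not tested. At 9 h 29 were lower and 10 higher than at 0 h, against 63.6% of all genes, 43.2% higher and 20.4% lower, with Plk1 at -2.90. Of the genes called at 9 h 67.9% were higher, and 49.3% after quantile scaling, which lowered the median of all genes by 0.29.

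In combined-loss cells 0 members passed limma's test at 3 h against 0 h, with 1 at an unadjusted p below 0.05 and 0 of all genes passing. At 6 h 0 members passed either, with 8 at an unadjusted p below 0.05, against 2.61% of all genes, 81.7% of them higher, and 68.6% after quantile scaling. The 6 h result hangs on a library, since 14 passed without combined-loss replicate 1 at 6 h. At 9 h 19 were lower and 0 higher than at 0 h, against 5.62% of all genes, 2.43% higher and 3.2% lower. Fewer passed without replicate 2 at 0 h, and fewer without all 4 libraries labelled 10 uM. Plk1 had 25.5 and 29.0 FPKM at 9 h, against 91.4 and 81.7 FPKM at 0 h, a change of -1.63 ± 0.12 (limma adjusted p = 4.13e-08), and its values at 3 and 6 h ran between 74.8 and 93.9 FPKM. Aurka (-1.21), Kif14 (-1.16), Cdca2 (-1.08), Kif18a (-0.99) and Ect2 (-0.89) fell most beside it. Of the kinesins 6 of 9 fell and of the genes of cyclins and CDK1 control 0 of 7. Between 6 and 9 h 16 members fell and 1, Ckap2, rose, against 11.6% of all genes, 4.26% higher and 7.33% lower, with Plk1 at -1.59 and Fzr1 at -0.99. In a fit of both groups alone 3 passed.

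**Figure D4:**
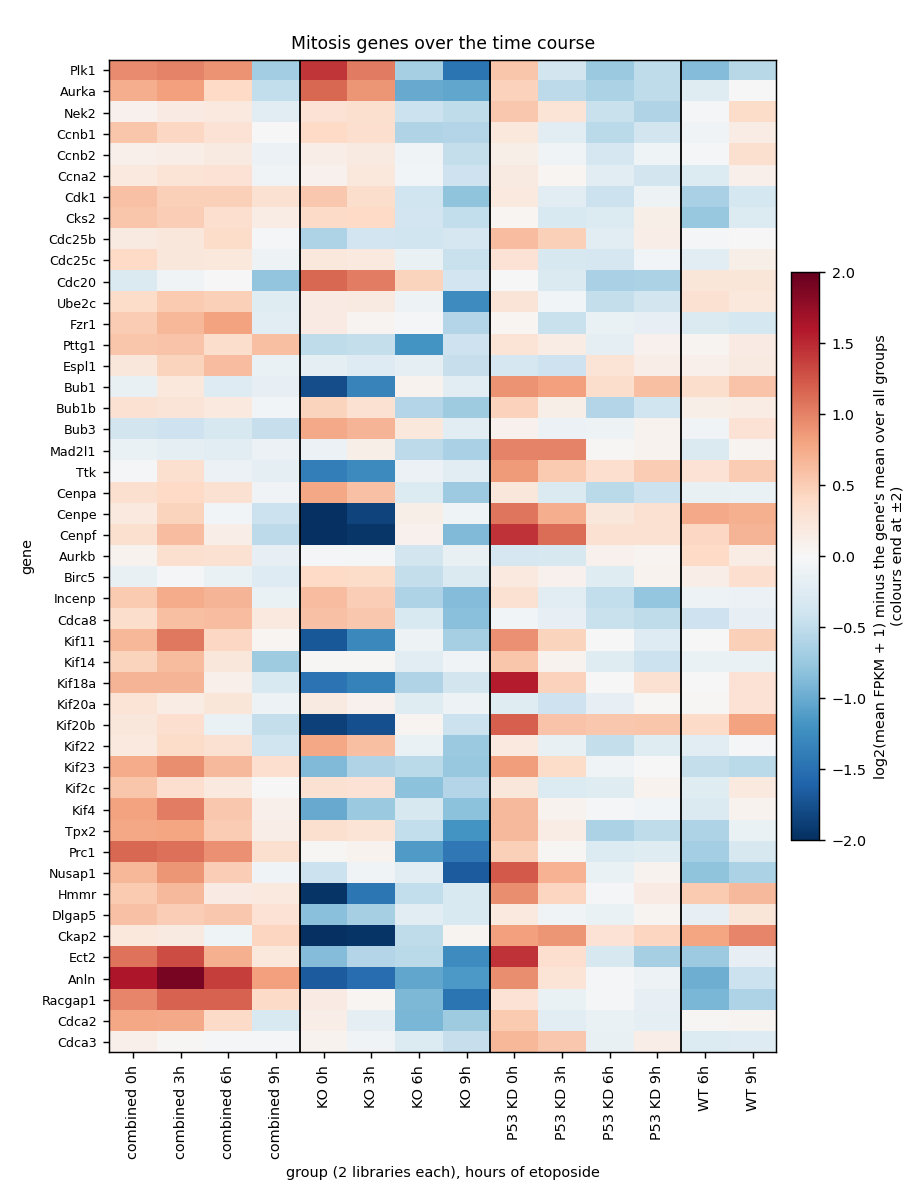
Level of each mitosis gene (rows) in each group of the time course (columns, mean of 2 libraries, hours of etoposide) as log2(mean FPKM + 1) minus the gene's mean over the 14 groups, with colours ending at 2 in either direction. Plk1 and Aurka are high in combined-loss cells up to 6 h and in knockout cells up to 3 h, while Cenpe, Cenpf, Kif20b and Ckap2 are low in knockout cells at 0 and 3 h.

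Combined-loss cells differed from knockout cells in most of the mitosis genes. At 9 h 29 members were higher in combined-loss than in knockout cells and 2, Kif14 (-0.65) and Cdc20 (-0.42), lower, against 53% of all genes, 20.5% higher and 32.5% lower, and the median was 0.47 against -0.13. Among the genes that passed here, 38.6% were higher, and 49.6% after quantile scaling, under which the members split into 30 and 3. Anln had 63.6 and 41.3 FPKM in combined-loss cells, against 12.5 and 12.8 FPKM in knockout cells, a change of 1.94. Racgap1 had 49.8 and 56.7 FPKM, against 12.7 and 15.7 FPKM, and Prc1 had 53.2 and 60.3 FPKM, against 15.8 and 16.4 FPKM. The lines did not overlap in these 3 genes, which were picked by the size of their change. All 3 act at the midzone or cleavage furrow. Nusap1 (1.59), Ect2 (1.44) and Tpx2 (1.33) followed, and Cdk1 (1.09), Ube2c (1.03) and Plk1 (0.77) were higher too. Already at 0 h 24 were higher and 7 lower, against 55.4% of all genes, 31.4% higher and 23.9% lower, with Anln at 3.27, Ckap2 at 2.73 and Hmmr at 2.46, and Cdc20 at -1.44 and Bub3 at -1.13. Of 4 tested trophectoderm markers 3 were higher in combined-loss than in knockout cells at 0 h and at 9 h, with medians of 2.40 and 1.44 (log2), and of the 4 Y-linked genes all 4 were higher at 0 h and 0 passed at 9 h. Their part in the result was not tested. At 0 h rho with span was 0.667 over the members and 0.205 over 13493 genes. The responses of both lines from 0 to 9 h differed for 31 members, 17 higher and 14 lower in the combined loss, against 47.4% of all genes, 15.5% higher and 31.9% lower. Plk1 (1.26), Cdca8 (1.26) and Cenpa (1.11) were higher, and Cenpe (-2.66), Ckap2 (-2.36) and Kif20b (-2.12), which stood low in knockout cells at 0 h, lower. Of the genes called, 32.7% were higher, and 52.4% after quantile scaling, under which the members split into 17 and 12 and 1 of the 31 had the other sign.

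Combined-loss cells differed from P53 knockdown cells in both directions. At 9 h 11 members were higher and 7 lower in combined-loss than in P53 knockdown cells, 18 in all, against 47.9% of all genes, 14.9% higher and 33% lower, with a median of -0.04. Without P53 knockdown replicate 1 at 9 h 11 passed, and without the 4 libraries labelled 10 uM 9. Anln (0.88), Ect2 (0.84) and Cdca8 (0.70) were higher, and Kif20b (-1.04) and Bub1 (-0.79) lower. Among all genes called, 31.1% were higher, and 50.9% after quantile scaling. At 0 h 12 were higher and 15 lower, against 44.9% of all genes, 21.2% higher and 23.7% lower, with Prc1 (0.70), Racgap1 (0.69) and Anln (0.68) among the higher and Cenpf (-1.14), Mad2l1 (-1.12) and Bub1 (-1.06) among the lower. That 27 came to 16 without combined-loss replicate 1 at 0 h. All 4 Y-linked genes were lower in combined-loss cells there, with a median of -2.26. At 9 h 9 of 10 fibroblast and feeder markers were lower in them, with a median of -0.99. The responses from 0 to 9 h differed for 11 members, 6 higher and 5 lower, against 34.2% of all genes, 11.8% higher and 22.4% lower (34.4% of the calls higher, and 50.3% after quantile scaling), and for 6 and 7 without combined-loss replicate 1 at 9 h and at 0 h. Ect2 (1.21), Mad2l1 (0.93) and Nek2 (0.83) had the higher response in the combined loss, and Espl1, the separase that cuts cohesin (-0.82 ± 0.15, limma adjusted p = 0.00048), Kif20a (-0.65), Aurkb (-0.63) and Plk1 (-0.57) the lower one. All 4 Y-linked genes had the higher response too, with a median of 1.87, and 5 of 10 fibroblast and feeder markers the lower one. The part of these markers was not tested.

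Members did not move as a block. Over the 28 time-course libraries the correlation of a member's log2(FPKM + 1) with the mean of the other members ran from -0.211 for Bub3 to 0.904 for Prc1, with Cdca2 (0.902), Tpx2 (0.895) and Ect2 (0.853) near the top and Cdc20 (0.0164), Bub1 (0.131) and Ckap2 (0.155) near the bottom. The libraries fall into lines and times and are not independent, so these values are a description. Anln had the widest range of group means, 3.56 (log2), and Ccna2, a cyclin of S phase and G2, the narrowest, 0.71. Outside the members the 5 genes most like their mean over the 28 libraries were Dbf4 (Pearson's r 0.901), Wee1 (0.893), Mapk4 (0.884), Prr11 (0.877) and Pde7a (0.875).

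P53 peaks at the members' starts came with etoposide. A peak with its summit within 1000 bases of the start in both libraries stood at 8 of 39 members (20.5%) in treated knockdown cells, against 11.5% of 10399 tested genes with a start, and at 1 (2.56%) in untreated knockdown cells, against 0.356%. In WT cells it stood at 9 members (23.1%) under etoposide, against 13.3% of genes, and at 1 (2.56%) without, against 0.5%. The 9 were Anln, Cdca3, Ckap2, Ect2, Fzr1, Hmmr, Kif11, Mad2l1 and Ube2c, of which 5 were left at a -log10 q of at least 5. The share of all genes at that cut-off was not counted. No P53 share was tested against that of all genes. The member with a peak in untreated cells of both lines was Cdca3, whose summits lie inside the gene Usp5, 814 to 998 bases before a start of Cdca3 that stands 646 bases inside the annotated gene. Summits at Hmmr lie inside Nudcd2, and those at Anln also inside 9530077C05Rik, so that the peak cannot be given to the member alone.

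At Ckap2 the P53 peak lay next to the start, with the start of the non-coding gene Gm29878 193 to 198 bases from the summits, so that it cannot be given to Ckap2 alone. Its fold enrichment, the authors' own value per peak, was 14.5 and 15.5 in treated knockdown cells and 14.2 and 16.0 in treated WT cells, with summits 11 to 16 bases before the start, inside the stretch printed above, and in WT replicate 1 the peak ran over chr8:22185369-22187102 on mm10. At Mad2l1 the fold was 8.19 and 6.49 in treated knockdown cells and 7.60 and 8.52 in treated WT cells, and the WT summit lay 82 bases before the start in both libraries, also inside its printed stretch. At Ube2c it was 6.26 and 6.98 in treated knockdown cells and 6.08 and 6.02 in treated WT cells. Both lines thus carried peaks at these starts, and folds from separately called lists are not a measure of change. Of the 9 members with a peak in treated WT cells 5 rose and 4 fell there, with a median of 0.28, and of the other 30 with a start 6 rose and 20 fell, with a median of -0.46. In knockdown cells the 9 had 6 higher and 2 lower, with a median of 0.35, and the other 30 had 14 higher and 7 lower, with a median of 0.08. Over all genes 39.3% rose and 37.6% fell in WT cells, and 31.5% and 37.1% in knockdown cells. The difference between these groups was not tested.

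**Figure D5:**
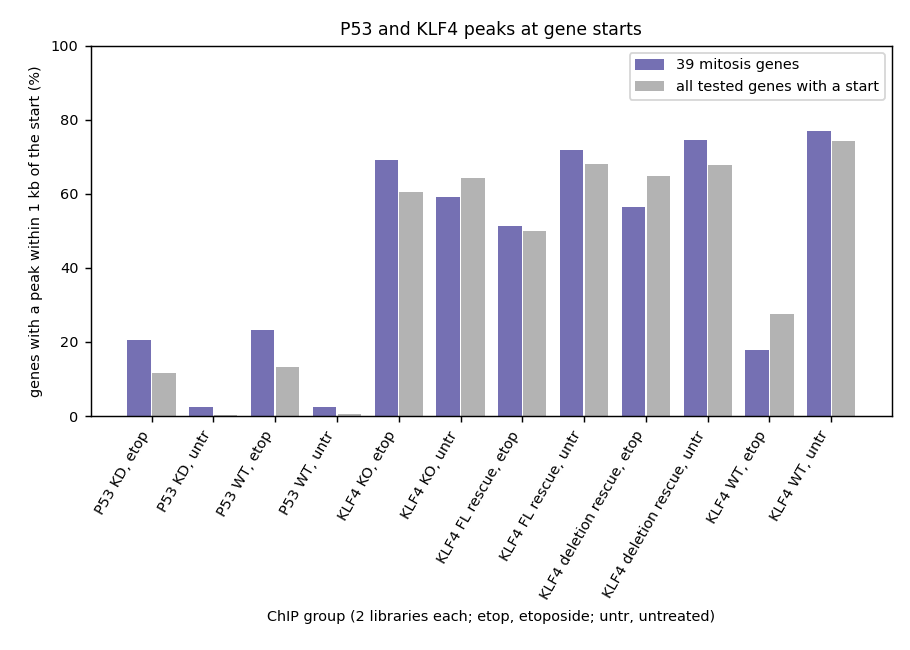
Percent of the 39 mitosis genes with a start (dark bars) and of all tested genes with a start (grey bars) that have a peak within 1 kb of it in both libraries (y axis), for each ChIP group (x axis), with KD for Lnc956 knockdown, KO for Lnc956 knockout and FL for full-length Lnc956. P53 bars stand at 20.5% and 23.1% of the mitosis genes under etoposide, and the KLF4 bar of treated WT cells, at 17.9%, is the lowest of the KLF4 bars.

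KLF4, a pluripotency factor, had peaks at most members' starts, as at most genes. A peak stood at 27 of 39 members (69.2%) in treated knockout cells, against 60.4% of genes, and at 23 (59.0%) in untreated knockout cells, against 64.3%. With full-length Lnc956 given back it stood at 20 (51.3%) under etoposide, against 50.0% of genes, and at 28 (71.8%) without, against 68.0%. With the deleted form it stood at 22 (56.4%) under etoposide, against 64.7%, and at 29 (74.4%) without, against 67.8%. In WT cells it stood at 7 (17.9%) under etoposide, against 27.5%, and at 30 (76.9%) without, against 74.1%. The low number in treated WT cells ran with the whole peak lists, which held 6943 and 5691 peaks there, against 30590 and 27294 in untreated WT cells. The 7 members that had a peak in both treated WT libraries were Anln, Birc5, Cdca3, Cdk1, Ckap2, Fzr1 and Mad2l1. At Fzr1 the authors' fold enrichment was 25.1 and 23.1 in treated WT cells, against 57.0 and 56.8 in untreated WT cells. Counting a peak in either library gave 13 members (33.3%) in treated WT cells, against 34.6% of genes. No KLF4 share was tested against that of all genes.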

How the data were processed

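The deposited expression tables hold FPKM per gene and library. The submitters' processing notes name mm10 as the build, TopHat2 2.0.8, Cufflinks 2.1.1 and Cuffdiff 2.1.1, tools of RNA-seq alignment and quantification, and Bowtie2 2.1.0 and MACS2 2.2.7.1, tools of ChIP alignment and peak calling. Per the file headers the peak lists give a fold enrichment as a ratio and a -log10 q for each peak, called per library by the authors. No file gives read counts, so depth is unknown. Per library, 11245 to 12858 genes stood at 1 FPKM or more in the time course and 11568 to 12031 in the first set.

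Columns were matched to samples by name, those of the combined loss by elimination, and 4 other columns, named as WT at 0 and 3 h, match none of the labelled samples and were left unused. From the first set 140 symbols on rows that differ were left out. A gene was tested at 1 FPKM in at least 2 libraries. Values were taken as log2(FPKM + 1) and fitted with limma 3.58.1 in R 4.3.3, with a trend and all groups of a table in 1 fit, and p-values were adjusted by Benjamini-Hochberg over all genes tested in each comparison (threshold 0.05). The fit was tested on simulated data. Peaks were counted by summit within 1000 bases of a RefSeq start (GRCm38.p6, the assembly of mm10), which 39 of 47 members had. Spans came from the same annotation.

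Members and lists were chosen with earlier results of these data known. Named in each comparison were up to 6 members that rose and up to 6 that fell most, index members of each role, and, outside the set, genes of smallest p in their list. Overlap of libraries is given only for genes named in this way, and its share over all genes was not counted. Comparisons of the time course share control libraries. The 3 comparisons of 9 h with 6 h within the knockout, P53 knockdown and combined-loss cells were added after the data were seen. Replicate numbers are shared between groups, and deviations of same-numbered libraries did not correlate in every pair (from -0.16 to 0.0889 in the first set and -0.554 to 0.514 in the time course), so the fit had no block. The alternatives were another pseudocount (0.1), a filter at 5 FPKM and none, quantile scaling, a fit of the compared groups alone, a replicate block, leaving out each library, and leaving out the 4 libraries labelled 10 uM. For peaks they were a window of 5000 bases, a -log10 q of at least 5, and a peak in either library.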

Additional observations from a re-analysis of the deposited data

Results flagged for a closer look

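The tests of a difference between responses gave these results. The etoposide response differed between Lnc956 knockdown and WT cells in 39 mitosis genes (Kif20b 1.39, log2). The response from 0 to 9 h differed between combined-loss and P53 knockdown cells in 11 members (Espl1 -0.82) and between combined-loss and knockout cells in 31 (Ckap2 -2.36). The step of 9 h against 6 h differed between knockout and WT cells in 18 members (Tpx2 -1.19) and between P53 knockdown and WT cells in 1 (Ccna2 -0.53). Groups had 2 libraries, so no single library was tested as standing apart.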

How the results depend on the processing

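Over 345 pairs of a member count and an alternative, 299 stayed within 1.5 times the count reported and 46 did not. Over 4175 pairs of an alternative and the change of a member past the threshold and named by the rule above, 451 lost the threshold and 0 turned their direction, and of 345 medians over the members 13 had the other sign, all of them close to 0. With the replicate number as a block 30 of 30 counts stayed within 1.5 times, among them 37 members for the difference of etoposide responses, 41 for knockout against WT at 9 h and 16 for the combined loss at 9 h against 0 h, so the pairing changed no count beyond that. Of 36 peak counts 34 stayed, the P53 peaks of treated WT cells coming to 5 at a -log10 q of at least 5 and the KLF4 peaks of treated WT cells to 13 in either library.

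Without the libraries labelled 10 uM 9 members passed for P53 knockdown against WT at 6 h, 27 for P53 knockdown at 6 h against 0 h, 9 for the combined loss at 9 h against 0 h, 9 for the combined loss against P53 knockdown at 9 h, 11 and 0 for the steps of knockout and P53 knockdown against WT, and 10 for knockout at 9 h against 6 h. In a fit of the compared groups alone 27 passed for P53 knockdown against WT at 9 h, 18 for WT at 9 h against 6 h, 1 for knockout and 0 for P53 knockdown at 3 h, 30 and 9 for the steps of knockout and P53 knockdown against WT, and 6 and 3 for 9 h against 6 h in P53 knockdown and combined-loss cells. Quantile scaling gave 8 for WT at 9 h against 6 h, 17 for P53 knockdown at 3 h, 1 for the combined loss at 6 h, 2 for the step of P53 knockdown against WT and 1 for P53 knockdown at 9 h against 6 h, where 0 members had passed limma's test and 5 had an unadjusted p below 0.05. The filter of 5 FPKM gave 2 for the combined loss at 6 h. The causes were not tested.

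Leaving out 1 library at a time gave 4 to 11 members for untreated knockdown against WT, 12 to 14 for knockout against WT at 6 h, 8 to 10 and 10 to 12 for P53 knockdown against WT at 6 and 9 h, and 0 to 2 for WT at 9 h against 6 h. It gave 4 to 16 and 26 to 40 for P53 knockdown at 3 and 6 h, 0 to 14 and 12 to 15 for the combined loss at 6 and 9 h, 16 to 25 and 11 to 15 for the combined loss against P53 knockdown at 0 and 9 h, 6 to 15 for the difference of their responses, 11 to 16 for the step of knockout against WT, 12 for knockout at 9 h against 6 h, and 12 to 24 for the combined loss at 9 h against 6 h. There the lone library of a group was taken to vary like the other groups. Depth is unknown, and 2 libraries per group limit the precision.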
